A study of Mus musculus with 10 samples.

Results

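The 10 genes followed here, of 17290 protein-coding genes with a peak near them in at least 1 library and 21938 in the annotation, encode proteins of the absorptive colonocyte. Slc26a3 and Slc9a3 are the chloride-bicarbonate and sodium-proton exchangers of the apical membrane. Car1 and Car4 are carbonic anhydrases, Aqp8 is a water channel and Guca2a is the precursor of guanylin, the peptide that activates guanylyl cyclase C. Alpi is intestinal alkaline phosphatase and Lypd8 a surface protein that keeps flagellated bacteria away from the epithelium. Maoa degrades monoamines and Pygl breaks down glycogen. The genes were listed by these roles, by a rule that uses no measured value, but with earlier results of these data known. In the colon crypt, stem cells divide under Wnt signals at the base, and their progeny become absorptive colonocytes or secretory cells as they move up and lose those signals. Colonocytes take up salt, water and short-chain fatty acids, and the genes for this are switched on late along the crypt. Open chromatin at a gene is not a measure of its expression, and no expression values were used here.

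Omni-ATAC-seq, which tags open chromatin with a transposase, had been applied to live sorted cells of mouse colon organoids, cultures grown from colon crypts. WT organoids came from wild-type mice and AHR KO organoids from Vil-Cre Ahr fl/fl mice, in which the aryl hydrocarbon receptor gene is deleted where the Villin promoter drives Cre, that is, in the intestinal epithelium. WENR medium held Wnt3a-conditioned medium, the kinase inhibitors SB202190 and A83-01 and nicotinamide on top of the EGF, Noggin and R-spondin of ENR medium, and d4 ENR organoids had been kept in ENR alone for 4 days to differentiate. There were 2 WT and 3 AHR KO libraries in WENR and 3 WT and 2 AHR KO libraries in d4 ENR, and values below are given in this order of replicates. Age and sex of the mice, and whether each library came from a separate mouse, were not given in the sources used here, so the p-values measure only the spread between these libraries. The media differ in several agents at once and in time, so these cannot be told apart.

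Between 30354729 and 49126792 fragments lay behind each list of peaks. Peaks held 63.0% to 68.6% of the fragment coverage in WENR, 14.1%, 24.4% and 30.9% in WT d4 ENR and 33.8% and 44.2% in AHR KO d4 ENR, so depth inside peaks moved with the medium and, in d4 ENR, with the genotype. The fragment length given with each list moved likewise. It was 235 to 255 bp in WENR, 200, 156 and 172 bp in WT d4 ENR and 221 and 202 bp in AHR KO d4 ENR. Its effect on the bases inside peaks was not tested. WT d4 ENR replicate 1 stood apart with 33433 peaks against 47898 to 65308 in the others. A peak list cannot show the deletion in the targeted gene. Over Ahr with 5 kb on each side, the WT libraries had 2142 and 2544 bp inside peaks in WENR and 1216, 1595 and 1318 bp in d4 ENR, and the AHR KO libraries 5130, 5346 and 7017 bp and 3541 and 3250 bp. All 7 colon epithelium markers (Epcam, Cdh1, Krt8, Krt18, Cdx1, Cdx2, Hnf4a) had a peak in every library. Of the immune and stromal markers, Cd3e, Lyz2 and Col1a2 had no peak in any library and Ptprc, Pecam1, Col1a1 and Pdgfra had peaks in 8 to 10 libraries. Their summed signal was 40.4 to 50.2 ppm in WENR and 26.4 to 39.7 ppm in d4 ENR, a unit explained below.

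Peaks of all libraries that shared at least 1 bp were merged into 85680 regions, and 57 of these touched the 10 genes or 5 kb on either side (GRCm38, GENCODE M21). They are called sites and numbered along each gene in the direction of its transcription. Slc26a3 had 15, Car1 and Maoa 10 each, Lypd8 5, Slc9a3 and Car4 4 each, Aqp8 3, and Alpi, Guca2a and Pygl 2 each. By their midpoints, 30 lay in introns, 8 upstream, 5 downstream and 4 in exons, and 10 held an annotated start of their gene. A site opened on differentiation if it had no peak in the 5 WENR libraries and a peak in each of the 5 d4 ENR libraries. By this rule 1 of the 57 sites (1.75%) opened, against 0.317% of all regions, and none closed, against 5.46% of all regions. A peak was present in all 10 libraries at 20 sites (35.1%), against 32.9% of all regions. Of the other 37 sites, 12 had a peak in more d4 ENR than WENR libraries, 21 in fewer and 4 in the same number. With 1 of 57, the share of opened sites rests on a single site.

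The site that opened is site 3 of Car1, in an intron on chromosome 3 from 14801971 to 14802378. Peaks there covered 293, 276 and 408 bp in the WT and 390 and 357 bp in the AHR KO d4 ENR libraries, with fold enrichments of 2.46, 3.92, 2.76, 3.13 and 2.36, the ratio of the mean pileup of fragments to the local background that the peak caller estimated. These were weak peaks. Ranked by significance within their own lists they stood at percentiles 1.46, 43.7, 24.3, 37.8 and 12.8. No peak in WENR means only that the caller's threshold was not reached there. With peaks of a −log10 q of at least 5, no site met the rule. Without WT d4 ENR replicate 1, site 1 of Car4, upstream on chromosome 11 from 84952471 to 84952917, met it too. That site had no peak in WENR and peaks over 283 and 394 bp in WT replicates 2 and 3 and 255 and 408 bp in both AHR KO libraries. Site 3 of Car4, which holds its start, had a peak of 525 bp in AHR KO WENR replicate 3 and in no other library. Site 4 of Lypd8, downstream on chromosome 11 from 58391727 to 58393646, had 1 small peak of 278 bp in WENR (AHR KO replicate 1) and peaks of 387, 783, 1919, 1770 and 1549 bp in d4 ENR. Site 1 of Aqp8 went from 0 of 5 to 3 of 5 libraries. In the other direction, site 2 of Alpi, in an exon, had peaks in 5 of 5 WENR libraries and in 1 of 5 d4 ENR libraries, and sites 4 and 5 of Maoa likewise.

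The sequence of GRCm38 (plus strand) is shown for the opened Car1 site over a stretch that lay inside the peaks of all 5 d4 ENR libraries, chr3:14802044-14802311. The promoters shown are those of the 3 genes whose signal share rose (chr12:31437969-31438218, chr7:123462044-123462290 and chr4:119637482-119637703, all genes on the plus strand), from RefSeq (GRCm38.p6). That of Slc26a3 ends at the base before the transcript start that RefSeq gives, which is the start of Slc26a3-201. Those of Aqp8 and Guca2a end at the base before the gene start of GENCODE, which lies further upstream than that of RefSeq. Of the 10 genes, 9 had an entry in the promoter table. Capitals mark matches, on either strand, to letters of the intestinal factors HNF4 (CAAAGTCCA or CAAAGTTCA) and CDX2 (GCAATAAA, GCCATAAA, GTAATAAA or GTCATAAA), of KLF factors (GGGTGTGG) and of TEAD factors (GCATTCC or ACATTCC).
Car1 site 3: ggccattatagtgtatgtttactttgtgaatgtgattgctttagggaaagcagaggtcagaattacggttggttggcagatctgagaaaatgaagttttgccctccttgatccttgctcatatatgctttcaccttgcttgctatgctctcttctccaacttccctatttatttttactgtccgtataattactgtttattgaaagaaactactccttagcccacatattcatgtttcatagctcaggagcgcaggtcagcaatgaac
Slc26a3 promoter: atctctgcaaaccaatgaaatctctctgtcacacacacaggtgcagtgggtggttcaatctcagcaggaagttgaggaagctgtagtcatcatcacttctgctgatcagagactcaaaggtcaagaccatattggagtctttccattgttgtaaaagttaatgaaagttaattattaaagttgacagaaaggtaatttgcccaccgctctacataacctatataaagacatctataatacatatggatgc
Aqp8 promoter: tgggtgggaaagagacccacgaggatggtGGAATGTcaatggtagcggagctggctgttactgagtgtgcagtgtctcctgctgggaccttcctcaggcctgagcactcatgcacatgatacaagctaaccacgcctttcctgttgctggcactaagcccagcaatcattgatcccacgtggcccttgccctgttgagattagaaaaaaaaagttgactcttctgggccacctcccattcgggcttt
Guca2a promoter: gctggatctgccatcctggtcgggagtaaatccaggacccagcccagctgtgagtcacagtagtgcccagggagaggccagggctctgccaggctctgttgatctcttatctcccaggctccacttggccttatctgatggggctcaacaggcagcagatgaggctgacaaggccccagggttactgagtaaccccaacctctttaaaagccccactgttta

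The single match in these 4 sequences was to TEAD letters in the Aqp8 promoter. In the central 300 bases of the sites, CDX2 letters were found at 6 of 57 (10.5%, against 7.75% of all regions), TEAD letters at 4 (7.02% against 9.76%), KLF letters at 2 (3.51% against 4.64%) and HNF4 letters at 1 (1.75% against 2.12%). The CDX2 matches were at sites 7 and 8 of Slc26a3, site 2 of Car1, site 1 of Car4, site 2 of Aqp8 and site 1 of Guca2a. The HNF4 match was at site 2 of Slc26a3. In the promoter table (300 bases per entry, including the 50 after the start), HNF4 letters were in the entry of Alpi, CDX2 letters in that of Aqp8, where they run past the stretch shown, and TEAD letters in those of Aqp8 and Lypd8. All promoters held them at 0.861%, 3.42% and 7.0%. A match is a description of the letters and not a site of binding.

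The level at each gene was measured in 2 ways. The covered length is the number of bases of the gene and its 5 kb flanks inside peaks. The signal share is the sum of pileup times bases over those peaks, in ppm of the same sum over all peaks of the library, so that it does not fall with the loss of peaks across the genome. Medium effects below are means over both genotypes of the difference d4 ENR minus WENR in log2(value + 100 bp) or log2(value + 1 ppm), tested with limma over all 17290 genes with Benjamini-Hochberg adjustment. A gene was called at an adjusted p of at most 0.05. On signal share, 3 of the 10 genes rose (Slc26a3, Aqp8, Guca2a), 3 fell (Alpi, Car1, Maoa) and 4 were not called (Slc9a3, Car4, Lypd8, Pygl). Over all genes, 19% were called higher and 16.6% lower. The median effect was 0.35 over the 10 genes and 0.04 over all genes tested. On covered length, 1 gene rose (Slc26a3) and 4 fell (Alpi, Maoa, Pygl, Car1), where 0.96% of all genes were called higher and 56.5% lower. The median effect was −0.42 over the 10 genes and −0.48 over all genes. When the sum was scaled to the fragments of the library and not to its signal in peaks, the median gene fell by 1.01 on the log2 scale, 1 of the 10 genes rose (Slc26a3) and 6 fell, where 1.34% of all genes were called higher and 88.8% lower. A rise in signal share is a rise relative to the other open regions of the same library.

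**Figure D1:**
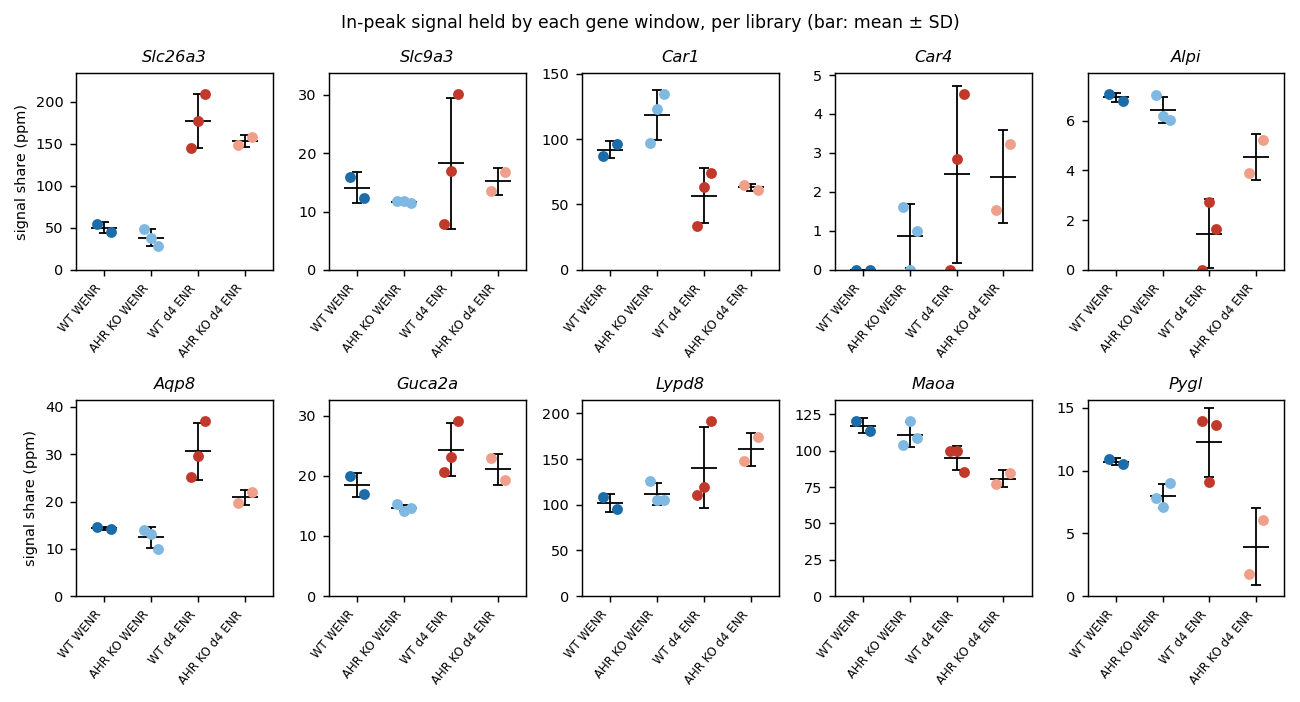
Signal share in ppm (y axis, from 0) at each gene in every library (points), with the mean and SD of each group (bars), for WT and AHR KO organoids in WENR (blue) and d4 ENR (red). The d4 ENR libraries of Slc26a3 sit between 145 and 209 ppm and the WENR libraries between 28.4 and 54.8 ppm, and the media also part at Aqp8, Alpi, Car1 and Maoa.

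Of the ion exchangers, Slc26a3 (ENSMUSG00000001225, chromosome 12, 31390871 to 31473917, plus strand) rose most. Its signal share was 54.8 and 45.4 ppm in WT and 48.6, 37.8 and 28.4 ppm in AHR KO libraries in WENR, and 145, 177 and 209 ppm in WT and 149 and 158 ppm in AHR KO libraries in d4 ENR. Every d4 ENR library lay above every WENR library. Group means were 50.1 ± 6.63 ppm (SD, n = 2) and 38.2 ± 10.1 ppm (SD, n = 3) in WENR and 177 ± 32.1 ppm (SD, n = 3) and 153 ± 6.69 ppm (SD, n = 2) in d4 ENR. The effect was 1.90 ± 0.16 (SE) on the log2 scale, a 3.73-fold rise (limma, adjusted p = 0.000178). Permuting the medium within genotypes gave p = 0.02 (exact permutation test, 2-sided), the smallest that 100 arrangements allow. The rise was 1.79 in WT and 2.01 in AHR KO organoids (limma, adjusted p = 0.0022 and 0.00165). Scaled to fragments it was 0.72 (limma, adjusted p = 0.0276). The call held without each of the 10 libraries in turn. The gene lies 4.02 Mb from Ahr and is linked to the targeted allele, so a difference between the genotypes at Slc26a3 and one in the sequence linked to that allele cannot be told apart.

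In covered length, Slc26a3 measured 6681 and 5838 bp (WT) and 5921, 5345 and 5500 bp (AHR KO) in WENR, and 5681, 6345 and 8084 bp (WT) and 8573 and 8739 bp (AHR KO) in d4 ENR. The media overlapped. The effect was 0.085 in WT and 0.62 in AHR KO organoids (limma, adjusted p = 0.627 and 0.0399). The interaction was not called (limma, adjusted p = 0.247). Averaged over the genotypes, the effect was 0.35 ± 0.11 (SE) (limma, adjusted p = 0.0263; exact permutation test, p = 0.1). The call was lost in each of 5 fits that left out 1 library (WT WENR replicate 2, AHR KO WENR replicates 2 and 3, AHR KO d4 ENR replicates 1 and 2), where the adjusted p was 0.0529 to 0.0919, with 20 kb flanks (adjusted p = 0.216) and with a −log10 q of at least 5 (adjusted p = 0.0545).

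Slc9a3 (chromosome 13, 74121457 to 74169442, plus strand), the other exchanger, was not called. Its signal share was 16.0 and 12.3 ppm in WT and 11.8, 11.7 and 11.5 ppm in AHR KO libraries in WENR, and 7.79, 16.9 and 30.1 ppm in WT and 13.5 and 16.8 ppm in AHR KO libraries in d4 ENR. The WT d4 ENR libraries alone spanned the range of all the others. The effect was 0.26 (95% interval −0.46 to 0.98; limma, adjusted p = 0.528).

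Of the carbonic anhydrases, Car1 fell and Car4 was not called. The share of Car1 (chromosome 3, 14766216 to 14808368, minus strand) was 87.1 and 96.4 ppm in WT and 97.2, 123 and 134 ppm in AHR KO libraries in WENR, and 33.6, 63.0 and 73.7 ppm in WT and 64.8 and 61.3 ppm in AHR KO libraries in d4 ENR. All d4 ENR libraries lay below all WENR libraries, an effect of −0.82 ± 0.21 (SE) (limma, adjusted p = 0.0215; exact permutation test, p = 0.02). Its covered length also fell, by 0.83 (limma, adjusted p = 0.031). Both calls were lost without WT WENR replicate 1 or 2, AHR KO WENR replicate 2 or 3 or AHR KO d4 ENR replicate 1 or 2, at an adjusted p of up to 0.0814 for the share and 0.0859 for the length, and the length also without WT d4 ENR replicate 2 (0.0556). The gene with the opened site was lower as a whole. Sites 4 and 5, in introns, held 18.3 to 24.3 ppm and 16.0 to 29.9 ppm in WENR and 3.16 to 9.64 ppm and 0 to 10.2 ppm in d4 ENR, while the opened site 3 held 2.64 to 4.79 ppm in d4 ENR.

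Car4 (chromosome 11, 84957786 to 84966044, plus strand) was at the edge of detection. No peak was found in 3 of 5 WENR libraries and in WT d4 ENR replicate 1, and the highest share was 4.5 ppm, in WT d4 ENR replicate 3. Its effect of 1.19 was not called (95% interval 0.04 to 2.35; limma, adjusted p = 0.0965). Without WT d4 ENR replicate 1 it was 1.56 and was called (limma, adjusted p = 0.00805). The interval is wide, so the size of any effect at Car4 stays uncertain.

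Aqp8 (chromosome 7, 123462291 to 123468004, plus strand) and Guca2a (chromosome 4, 119637704 to 119639471, plus strand) rose in signal share and not in covered length. Aqp8 held 14.6 and 14.1 ppm in WT and 14.1, 13.2 and 9.96 ppm in AHR KO libraries in WENR, and 25.1, 29.6 and 37.1 ppm in WT and 19.8 and 22.0 ppm in AHR KO libraries in d4 ENR. The media did not overlap, with an effect of 0.87 ± 0.13 (SE), or 1.83-fold (limma, adjusted p = 0.00245; exact permutation test, p = 0.02). Its covered length was 1358 to 1531 bp in WENR and 814 to 1857 bp in d4 ENR, an effect of −0.30 (95% interval −0.75 to 0.15; limma, adjusted p = 0.203). Scaled to fragments, the effect on Aqp8 turned to −0.23 and was not called. Over the gene body alone it was 0.45 (limma, adjusted p = 0.0528).

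Guca2a held 19.9 and 17.0 ppm in WT and 15.2, 14.2 and 14.6 ppm in AHR KO libraries in WENR, and 20.6, 23.1 and 29.2 ppm in WT and 22.9 and 19.2 ppm in AHR KO libraries in d4 ENR. The media overlapped between WT in WENR and AHR KO in d4 ENR, but within each genotype every d4 ENR library was higher. The effect was 0.43 ± 0.11 (SE), or 1.35-fold (limma, adjusted p = 0.0187; exact permutation test, p = 0.02). Scaled to fragments, Guca2a was called lower (effect −0.64, limma, adjusted p = 0.0187), so its direction depends on the scale. The call on the share was lost without WT WENR replicate 2 (adjusted p = 0.08) or AHR KO d4 ENR replicate 1 (0.07), and over the gene body alone (0.369).

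At the brush border, Alpi fell and Lypd8 was not called. Alpi (chromosome 1, 87098002 to 87101606, minus strand) held 7.06 and 6.80 ppm in WT and 7.02, 6.19 and 6.04 ppm in AHR KO libraries in WENR, and 0, 2.74 and 1.62 ppm in WT and 3.90 and 5.20 ppm in AHR KO libraries in d4 ENR. All d4 ENR libraries were lower, with an effect of −1.16 ± 0.33 (SE) (limma, adjusted p = 0.0296; exact permutation test, p = 0.02). That effect was −1.89 in WT and −0.43 in AHR KO organoids (limma, adjusted p = 0.0243 and 0.599). The interaction was not called (limma, adjusted p = 0.591). In covered length the effect was −1.93 ± 0.34 (SE) (limma, adjusted p = 0.00328), from 1529 ± 192 bp (SD, n = 5) to 374 ± 332 bp (SD, n = 5). The call on the share was lost without any single library other than those of WT d4 ENR (adjusted p = 0.0602 to 0.0993). Lypd8 (chromosome 11, 58379043 to 58390728, plus strand) held 95.4 to 126 ppm in WENR and 111 to 192 ppm in d4 ENR, an effect of 0.47 (95% interval 0.09 to 0.85; limma, adjusted p = 0.0567). It was called without WT d4 ENR replicate 1 (effect 0.54, adjusted p = 0.0263) or replicate 3 (effect 0.35, adjusted p = 0.022). Over the gene body alone, without the flanks that hold sites 1, 4 and 5, it was −0.53, and scaled to fragments −0.70 (limma, adjusted p = 0.0397).

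Of the metabolic genes, Maoa (chromosome X, 16619698 to 16687818, plus strand) lost the most covered bases. Its covered length was 11139 and 11505 bp (WT) and 10613, 14821 and 15067 bp (AHR KO) in WENR, and 2830, 2630 and 4223 bp (WT) and 4415 and 3856 bp (AHR KO) in d4 ENR. No d4 ENR library reached the lowest WENR library (effect −1.74 ± 0.16 (SE); limma, adjusted p = 0.000214). In signal share the fall was much smaller, at −0.38 ± 0.08 (SE) (limma, adjusted p = 0.00925). Site 1, which holds the start, and site 8, in an intron, had a peak in every library and held 49.4 to 72.0 ppm and 15.1 to 30.4 ppm. With lists of equal length neither fall was called (effects −0.13 and −0.04, limma, adjusted p = 0.0596 and 0.742). Pygl (chromosome 12, 70190811 to 70231488, minus strand) lost covered bases (effect −1.27 ± 0.40 (SE); limma, adjusted p = 0.0282), where site 1, upstream, had peaks in 5 of 5 WENR and 2 of 5 d4 ENR libraries. That call held only without WT d4 ENR replicate 3 or AHR KO d4 ENR replicate 2 among the fits that left out 1 library (adjusted p = 0.0519 to 0.081 in the others). Its share was not called (effect −0.43, 95% interval −1.02 to 0.16; limma, adjusted p = 0.218). That effect was 0.15 in WT and −1.01 in AHR KO organoids (limma, adjusted p = 0.78 and 0.115). The interaction was not called (limma, adjusted p = 0.58). Without AHR KO d4 ENR replicate 2, which leaves 1 library in that group, the effect over both genotypes was −0.76.

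**Figure D2:**
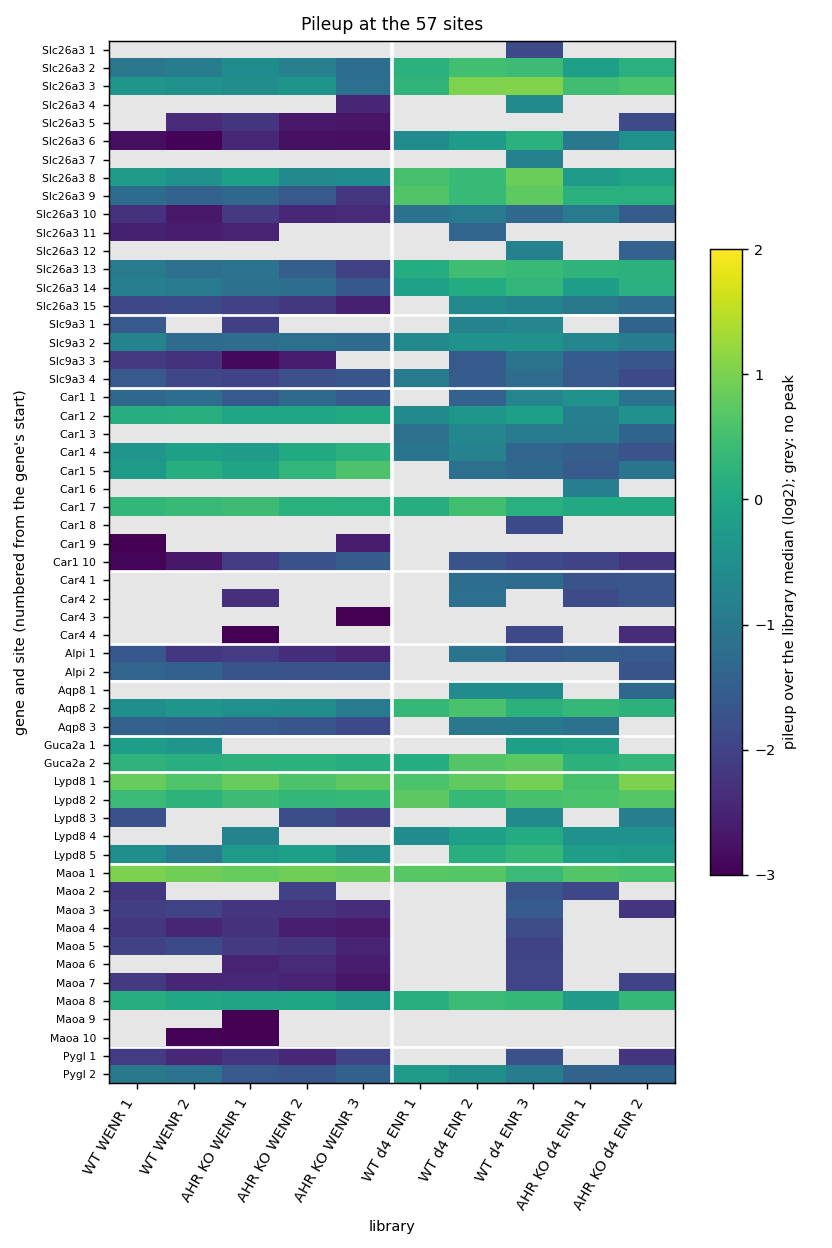
Pileup at the 57 sites (rows, numbered along each gene) in the 10 libraries (columns), as log2 of the pileup over the median of the 28205 regions with a peak in every library (colour), with grey where there was no peak. Of the Slc26a3 rows, sites 2, 3, 6, 9, 10, 13 and 14 are brighter in all 5 d4 ENR columns than in any WENR column, the row of Car1 site 3 is filled in d4 ENR only, and sites 3 to 7 of Maoa are mostly grey there.

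The 20 sites with a peak in all libraries allow the height of the peak to be compared. Of all 28205 such regions, 31.6% were called higher and 17.5% lower in fold enrichment, after centring each library on its median (limma over all such regions). Among the 20 sites, 6 rose in d4 ENR (sites 3, 6 and 13 of Slc26a3, site 7 of Car1, site 2 of Lypd8 and site 1 of Maoa) and 5 fell (sites 2 and 4 of Car1, sites 2 and 4 of Slc9a3 and site 2 of Pygl). In pileup relative to the library median, 30.4% of regions were called higher and 17% lower, and 12 of the 20 sites rose and 3 fell. All 8 shared sites of Slc26a3 rose in pileup, by 0.60 to 2.29 on the log2 scale, against 3 of 8 in fold enrichment. The 2 values differ in what they are set against, which is the surrounding 10 kb for fold enrichment and the other regions of the library for pileup. Neither pileup nor its library median had the background taken off. At site 10 of Slc26a3, pileup over the median was 0.159 to 0.223 in WENR and 0.349 to 0.515 in d4 ENR. Fold enrichment there was 3.05 to 4.32 and 2.54 to 3.31. What the background adds to the rises in pileup at weak peaks was not tested.

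**Figure D3:**
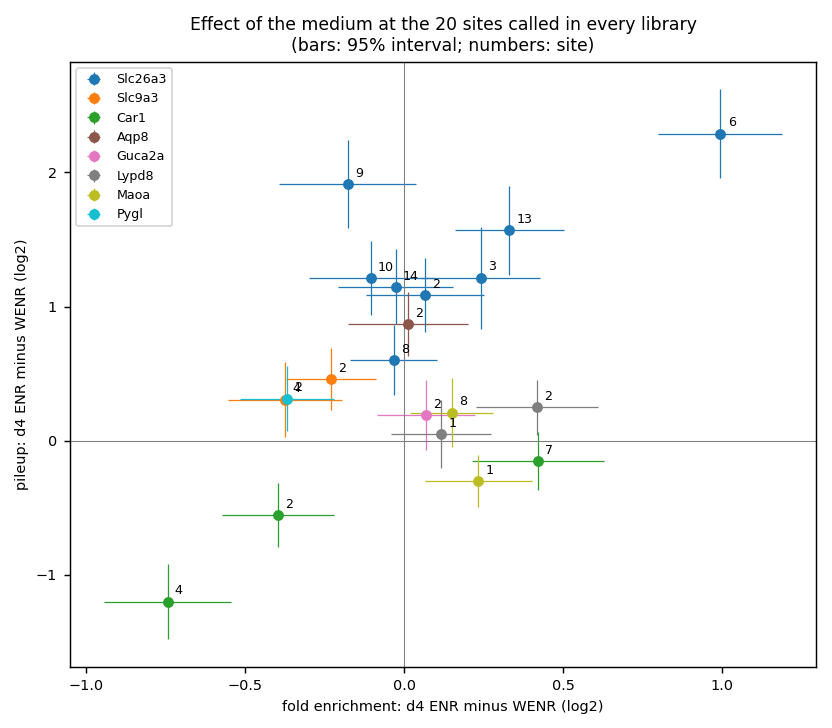
Difference d4 ENR minus WENR (log2) in fold enrichment (x axis) and in pileup (y axis) at the 20 sites with a peak in every library, with 95% intervals. The 8 sites of Slc26a3 all lie above 0 in pileup, site 6 farthest up and to the right at 0.99 and 2.29, while site 9 lies at −0.18 and 1.91.

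Site 6 of Slc26a3 lies in the first part of the gene, upstream of the start of the main transcript Slc26a3-201 at 31438219 and in an intron of the longer transcript that gives the gene its annotated start. Its pileup over the library median was 0.143 and 0.13 in WT and 0.186, 0.146 and 0.145 in AHR KO libraries in WENR, and 0.668, 0.837 and 1.15 in WT and 0.504 and 0.708 in AHR KO libraries in d4 ENR. The media were far apart, with an effect of 2.29 ± 0.15 (SE) (limma, adjusted p = 3.3e-07). In fold enrichment it went from 2.52 to 3.64 in WENR to 3.64 to 6.39 in d4 ENR (effect 0.99 ± 0.09 (SE); limma, adjusted p = 2.15e-05), the largest rise among the 20 sites. It held 0.617 to 1.69 ppm of the signal in WENR and 9.30 to 18.9 ppm in d4 ENR.

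Site 9 of Slc26a3 (31437079 to 31440003) holds the start of Slc26a3-201. Its pileup over the median was 0.427 and 0.373 in WT and 0.4, 0.328 and 0.216 in AHR KO libraries in WENR, and 1.56, 1.31 and 1.70 in WT and 1.15 and 1.13 in AHR KO libraries in d4 ENR (effect 1.91 ± 0.15 (SE); limma, adjusted p = 9.72e-07). It was the site with the largest share of the gene's signal in d4 ENR, at 35.0 to 59.3 ppm, from 3.56 to 7.74 ppm in WENR. Its fold enrichment was 4.05 to 5.59 in WENR and 3.50 to 4.91 in d4 ENR, an effect of −0.18 (95% interval −0.39 to 0.04; limma, adjusted p = 0.157). The local background behind that value was 1.002 to 1.51 times the genome-wide background of the library in WENR and 2.04 to 4.22 times in d4 ENR.

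**Figure D4:**
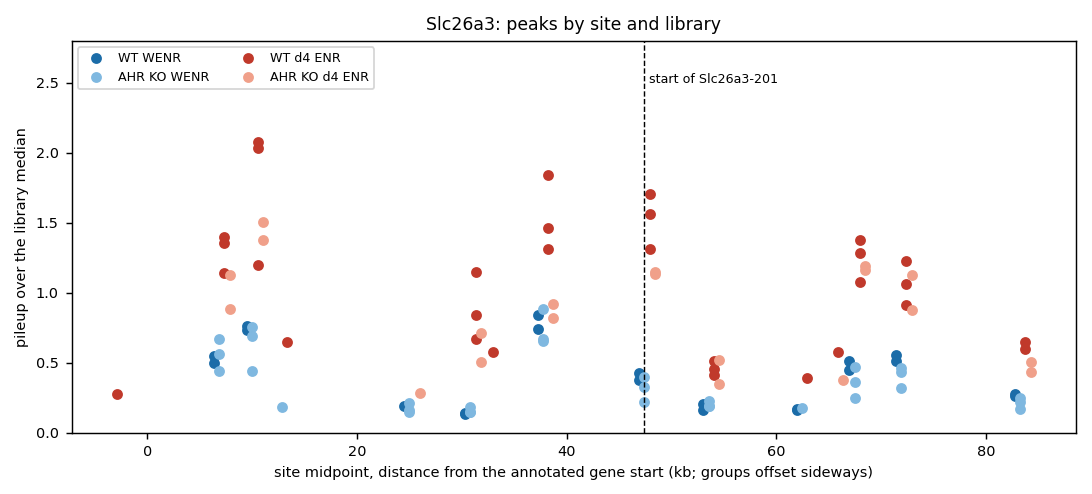
Pileup over the library median (y axis) of each peak at Slc26a3 against the distance of its site from the annotated gene start in kb (x axis, groups offset sideways), with the start of Slc26a3-201 at 47.3 kb (dashed line). At each of the 8 sites with a peak in every library, WT d4 ENR points (dark red) lie above all WENR points (blue).

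The measures parted at some of the other start sites and not at others. Site 2 of Aqp8, which holds its start, had pileups of 0.531 to 0.758 times the median in WENR and 1.16 to 1.48 times in d4 ENR (effect 0.87 ± 0.11 (SE); limma, adjusted p = 3.27e-05), with an effect on fold enrichment of 0.01 (95% interval −0.18 to 0.20; limma, adjusted p = 0.915). The start site of Slc9a3 (site 2) rose by 0.46 in pileup (limma, adjusted p = 0.00317) and fell by 0.23 in fold enrichment (limma, adjusted p = 0.0117), so no direction can be given for it. Site 2 of Pygl, at another annotated start of the gene, rose by 0.31 in pileup (limma, adjusted p = 0.0364) and fell by 0.37 in fold enrichment (limma, adjusted p = 0.00103). The start site of Maoa went the opposite way, at −0.30 in pileup and 0.23 in fold enrichment (limma, adjusted p = 0.0138 and 0.0256). The start site of Lypd8 (site 2) rose in both, by 0.25 and 0.42 (limma, adjusted p = 0.0465 and 0.00237). That of Guca2a was called in neither, at 0.19 and 0.07 (limma, adjusted p = 0.209 and 0.44). The start site of Alpi (site 1) had a peak in every library but WT d4 ENR replicate 1, so it was not tested. Its pileup was 0.177 to 0.322 times the median in WENR and 0.332 to 0.472 times in the d4 ENR libraries with a peak. Its peaks covered 847 to 1263 bp in WENR and 221 to 586 bp in those d4 ENR libraries.

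Within Car1, the sites moved apart. Site 4, in an intron on chromosome 3 from 14796255 to 14797726, had fold enrichments of 5.96 and 6.55 in WT and 6.65, 7.04 and 6.78 in AHR KO libraries in WENR, and 2.68, 5.05 and 3.62 in WT and 3.48 and 3.65 in AHR KO libraries in d4 ENR. It fell in fold enrichment by 0.74 and in pileup by 1.2 (limma, adjusted p = 9.84e-05 and 9.74e-06), the largest fall among the 20 sites in both. Site 7, at the start of the transcript Car1-201, rose by 0.42 in fold enrichment (limma, adjusted p = 0.00371) and was not called in pileup, at −0.15 (limma, adjusted p = 0.224).

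**Figure D5:**
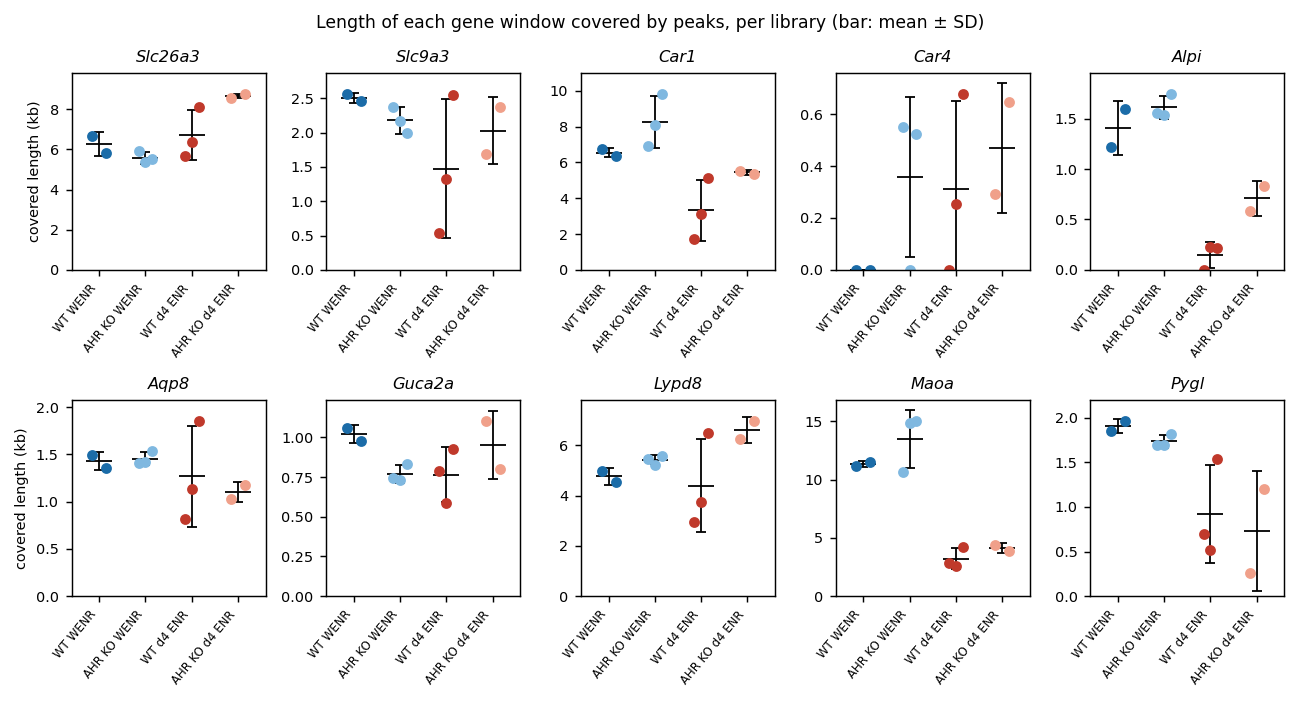
Covered length in kb (y axis, from 0) at each gene in every library (points), with the mean and SD of each group (bars), for the same 4 groups as above. WENR libraries of Maoa sit between 10.6 and 15.1 kb and d4 ENR libraries between 2.63 and 4.42 kb, while at Slc26a3 the AHR KO d4 ENR libraries are the highest.

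The genotypes were compared within each medium. In WENR none of the 10 genes was called by limma in covered length, where 0.231% of all genes were called higher and 0.0578% lower, or in signal share, where 0.133% and 0.0405% were. At an unadjusted p under 0.05 there was none either. In d4 ENR, Alpi was called higher in AHR KO in covered length, where 11.5% of all genes were called higher and 0.0463% lower. In d4 ENR, Alpi had 0, 230 and 221 bp inside peaks in the WT and 586 and 833 bp in the AHR KO libraries, with no overlap between them and an effect of 1.87 ± 0.49 (SE) (limma, adjusted p = 0.0493). The exact permutation test gave p = 0.2, the smallest that 10 arrangements allow. The call did not hold in signal share (limma, adjusted p = 0.224), it was lost without any single library other than WT d4 ENR replicate 1 or 3 (adjusted p = 0.0648 to 0.206), and with lists of equal length the effect turned to −0.57. Without WT d4 ENR replicate 3, 6 genes were called higher in AHR KO in covered length (Alpi, Car1, Lypd8, Slc26a3, Slc9a3 and Maoa), where 46.1% of all genes were called higher, so this count says little about the 10 genes. No gene was called in signal share, where 1.25% of all genes were called higher and 0.121% lower (3 genes, Alpi, Aqp8 and Pygl, had an unadjusted p under 0.05). No interaction of genotype and medium was called by limma on either measure (3 genes in covered length and 0 in signal share had an unadjusted p under 0.05).

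In d4 ENR the signal share of Pygl was 1.78 and 6.10 ppm in AHR KO and 13.97, 9.10 and 13.6 ppm in WT libraries. This difference in share was not called (effect −1.55 ± 0.36 (SE); limma, adjusted p = 0.101). It was called with lists of equal length (effect −1.78, limma, adjusted p = 0.00782), over the gene body alone and with RefSeq gene bounds (effect −1.79 in both), the last of which was added once the values were known. Without AHR KO d4 ENR replicate 2 it was −2.23 (limma, adjusted p = 0.00878). Site 2 of Pygl, with pileups over the median of 0.503 and 0.469 in WT and 0.33, 0.318 and 0.369 in AHR KO libraries in WENR and of 0.812, 0.694 and 0.537 in WT and 0.376 and 0.381 in AHR KO libraries in d4 ENR, was lower in AHR KO in both media. This difference was called in pileup over both media (effect −0.67 ± 0.11 (SE); limma, adjusted p = 0.0282), where 0.078% of all such regions were called higher and 0.443% lower, and not in fold enrichment (effect −0.04, limma, adjusted p = 0.83), where 0.00355% and 0% were. In d4 ENR alone, site 2 of Pygl and site 8 of Slc26a3 were called lower in pileup (effects −0.83 and −0.81, limma, adjusted p = 0.0365 and 0.0458), where 0.308% of all such regions were called higher and 1.07% lower. No site was called in fold enrichment, where 1.97% were called higher and 3.17% lower. Both genes are on chromosome 12, Pygl at 34.7 Mb from Ahr. Within 15 Mb of Ahr, 0 of 80 genes were called by genotype in d4 ENR in signal share and 9 of 80 (11.2%) in covered length, against 1.38% and 11.5% of genes elsewhere. In WENR these were 0 of 80 and 1 of 80 (1.25%), against 0.174% and 0.285% elsewhere. Over both media they were 2 of 80 (2.5%) in each measure, against 0.796% and 1.865% elsewhere.

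A second list of 28 absorptive colonocyte genes gives the surroundings. On signal share, 9 rose (32.1%, against 19% of all genes), 4 fell (14.3%, against 16.6%) and 15 were not called, with a median effect of 0.02. On covered length none rose and 15 fell (53.6%, against 56.5% of all genes), with a median of −0.49. Among the genes called, the largest rises were at Guca2b, the precursor of uroguanylin, a second ligand of guanylyl cyclase C (effect 1.86, from 0 to 3.20 ppm in WENR to 3.44 to 8.44 ppm in d4 ENR), Slc5a8, a transporter of short-chain fatty acids (1.16, from 5.24 to 8.54 to 14.6 to 19.2 ppm), and Prap1 (1.0, from 4.5 to 5.28 to 9.65 to 11.8 ppm). Slc51b, a subunit of the basolateral bile acid transporter, Krt20, the keratin of mature surface cells, and Myo1a, a brush border myosin, rose by 0.97, 0.92 and 0.84 (limma, adjusted p = 0.00283, 0.0121 and 0.00311). The 4 that fell were Atp12a, the colonic proton-potassium pump (−1.84), Scnn1a, a subunit of the epithelial sodium channel (−0.77), Ceacam1, an adhesion molecule (−0.66), and Abcb1a, a drug efflux pump (−0.37), with adjusted p of 0.00124, 0.00026, 0.0193 and 0.0268 by limma. In d4 ENR none of the 28 was called by genotype in signal share and 4 were higher in AHR KO in covered length (Vil1, Scnn1a, Dpep1 and Slc51b), which is 14.3% against 11.5% of all genes.

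Marker lists were read on the same scale. Of the 7 colon epithelium markers, 3 were called lower and none higher, and their sum was 1564 to 1714 ppm in WENR and 1291 to 1524 ppm in d4 ENR, without overlap. Summed over 6 goblet cell markers, the signal was 86.5 to 114 ppm in WENR and 105 to 129 ppm in d4 ENR, with 2 markers called higher and none lower. Of 5 stem cell markers, 1 was called higher and 2 lower, and their sum was 360 to 389 ppm in WENR and 308 to 383 ppm in d4 ENR. Of 5 enteroendocrine markers 1 was called lower, and of 4 tuft cell markers 1 was called in each direction. The 10 absorptive genes summed to 411 to 440 ppm in WENR and 457 to 677 ppm in d4 ENR. Without Slc26a3 the sums were 366 to 401 ppm and 312 to 467 ppm and overlapped. The 28 other absorptive genes summed to 2438 to 2611 ppm in WENR and 1974 to 2648 ppm in d4 ENR, which overlapped too. In these bulk libraries, a change in the share of a cell type and a change of chromatin within its cells cannot be told apart.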

How the data were processed

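Omni-ATAC-seq libraries of colon organoids (2 WT WENR, 3 AHR KO WENR, 3 WT d4 ENR, 2 AHR KO d4 ENR) were grouped by the labels of the samples. The authors trimmed and aligned the reads (BWA, GRCm38, nf-core/atacseq) and, library by library and with no control, called broad peaks (MACS 2.2.7.1) at q cutoffs of 0.1 (broad) and 0.05 (narrow). The deposited lists give each peak's pileup, a coverage signal in fragments not scaled for depth, its fold enrichment, a ratio to a local background over 10 kb, and −log10 p and q scores of the authors' caller. No read counts were used, and so no count test. The background includes the peak's own surroundings, while pileup and the signal share built on it have no background taken off. What either does to the effects at single sites was not tested.

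The 10 genes and all gene lists were chosen with earlier results of these data known. Group means on the log2 scale were fitted with limma 3.58.1 in R 4.3.3, and single values were tested with exact permutation tests (2-sided, 2 times the smaller tail, medium permuted within genotypes, genotype within media). Peaks were joined to genes in pandas 2.3.3 and numpy 2.4.6 (Python 3.11.15), with scipy 1.17.1 for permutations and matplotlib 3.10.9 for plots. Named are all 10 genes, their start sites and called sites, and up to 6 other absorptive genes per direction with the largest called effect on signal share. The fits were tested on simulated data. Alternatives were equal list lengths (33433 peaks), a −log10 q of at least 5, other gene windows and pseudocounts (changed 4-fold), scaling to fragments, removal of the local background, a replicate block and leaving out single libraries. RefSeq gene bounds were added after the data were seen. The main fits did not pair libraries by replicate number. Deviations of libraries with the same number in both media correlated at −0.1 to 0.03 over genes. In a group of 2 the deviations mirror each other, so these values cannot settle whether the numbers pair libraries. The sequence of 1 site and 1 marker gene are not reported here.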

Additional observations from a re-analysis of the deposited data

How the results depend on the processing

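Differences in the share of coverage in peaks limit what covered length and presence can show in d4 ENR, and a weak peak may be missed in the WT d4 ENR libraries. Of the 10 genes, 1 was called higher in covered length in d4 ENR. This count was 0 with a −log10 q of at least 5, with 20 kb flanks, with the replicate block and with the exact permutation test, and 0 to 1 without single libraries. The 4 called lower were 2 when all protein-coding genes were tested and 1 with the replicate block (Maoa, −1.80), and 2 to 6 without single libraries. Of signal shares, the 3 called higher were 1 over the gene body alone, 1 scaled to fragments and 0 with the exact permutation test, and 2 to 5 without single libraries. The 3 called lower were 6, 1 and 0 scaled to fragments, with the replicate block and with the exact permutation test, and 1 to 3 without single libraries. With the replicate block the shares of Slc26a3 (1.74), Aqp8 (0.73) and Car1 (−0.88) were called. Whether the numbers pair the libraries is not known. Adjusted over all genes, the exact permutation test of the medium (smallest p 0.02) had few arrangements (100) to call any of the 10 genes with.

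For genotype in d4 ENR, the 1 gene called higher in covered length was 2 with a −log10 q of at least 5, 0 with all protein-coding genes or a smaller pseudocount, and 0 to 6 without single libraries. The exact permutation test also gave 0, but it could give nothing else, since its smallest p is 0.2. None was called lower, against 1 with lists of equal length, a −log10 q of at least 5, the gene body alone and RefSeq gene bounds. In signal share 1 was called higher scaled to fragments, 1 lower under the same 4 settings, and 0 to 1 lower without single libraries. The interaction in covered length had 1 gene called higher with lists of equal length and 0 to 2 without single libraries. Opened sites were 0 with a −log10 q of at least 5 and 1 to 2 without single libraries. Closed sites were 1 with lists of equal length, 2 with a −log10 q of at least 5, 5 when a peak had to cover 50% of the region, and 0 to 2 without single libraries. Sites in all libraries were 9 under that 50% rule. In fold enrichment, 2 sites were called higher with no centring, and pileup called 12 higher and 3 lower.

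Some effects changed sign, and the cause was not tested. In covered length these were Aqp8 (0.0282) and Guca2a (0.12) with 20 kb flanks, Guca2a without single libraries (−0.167 to 0.0427, above 0 without WT d4 ENR replicate 2 or AHR KO d4 ENR replicate 2), and Lypd8 with lists of equal length (−0.37), a −log10 q of at least 5 (−0.44), the gene body alone (−0.95), 20 kb flanks (−0.0612), the replicate block (−0.10) and without single libraries (−0.11 to 0.165, below 0 without WT d4 ENR replicate 3). In signal share they were Slc9a3 with lists of equal length (−0.0314) and a −log10 q of at least 5 (−0.76), Slc9a3, Aqp8, Guca2a and Lypd8 scaled to fragments (−0.73, −0.23, −0.64 and −0.70), Lypd8 over the gene body alone (−0.53) and Maoa with a −log10 q of at least 5 (0.0289). The genotype effect on the covered length of Alpi was −0.57 with lists of equal length. Pileup turned the sign of fold enrichment at site 7 of Car1 (−0.15), sites 8, 9, 10 and 14 of Slc26a3 (0.60, 1.91, 1.21 and 1.15), site 2 of Pygl (0.31), sites 2 and 4 of Slc9a3 (0.46 and 0.31) and site 1 of Maoa (−0.30). Without centring it turned at site 2 of Guca2a (−0.042), Aqp8 (−0.0988) and Slc26a3 (−0.0452), with quantile normalization at site 1 of Lypd8 (−0.0016) and with the replicate block at site 14 of Slc26a3 (0.0062). Without single libraries, effects on both sides of 0 were found at site 2 of Aqp8 (−0.0606 to 0.0855) and at sites 2 (−0.0065 to 0.139), 8 (−0.0789 to 0.0141) and 14 (−0.106 to 0.0538) of Slc26a3. None of these fold enrichment effects at Aqp8, Guca2a, Lypd8 and Slc26a3 had been called.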
